A study of Mus musculus with 15 samples.

Results

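The genes described here are the protein-coding replication-dependent histone genes of the mouse, taken as every gene whose GENCODE M21 symbol starts with Hist1h, Hist2h, Hist3h or Hist4h and whose annotated type is protein coding. The deposited tables held 65 of them among 46679 genes, and a further 2 in GENCODE M21 were not analysed here. They comprised 6 linker histone H1 genes, 18 H2A genes, 16 H2B genes, 12 H3 genes and 13 H4 genes. On the mm10 build, 52 lay in the Hist1 cluster on chromosome 13 (chr13:21715763-23934851), 10 in the Hist2 cluster on chromosome 3 (chr3:96219865-96270132), 2 in the Hist3 cluster on chromosome 11 (chr11:58948920-58956830) and 1, Hist4h4, on chromosome 6 (chr6:136801553-136804415).

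Replication-dependent histone genes supply the bulk of new histone protein while DNA is copied, and their mRNAs are held high in S phase and degraded when it ends. H2A, H2B, H3 and H4 form the nucleosome core, and H1 binds the linker DNA between nucleosomes. Most of these genes lack introns, and their main mRNAs end in a conserved stem-loop, bound by the stem-loop binding protein Slbp, in place of a poly(A) tail. Some also give polyadenylated transcripts, mostly in cells that have stopped dividing. Replacement histones such as H3f3a and H2afz are polyadenylated and made throughout the cell cycle. In a brain that carries few dividing cells, core histone mRNA of the replication-dependent kind is thus generally sparse.

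RNA was sequenced from naive brain tissue and from 4 syngeneic orthotopic glioblastoma models in C57BL/6 mice, with 3 mice in each of the 5 groups. CT2A (Trp53 wild type) and GL261 (K-ras and Trp53 mutant) are chemically induced lines, 005 was driven by activated H-ras and AKT with loss of 1 Trp53 allele, and Mut3 arose from inactivation of Nf1 and Trp53. Mice were aged 6 to 8 weeks when 500000 cells of Mut3 or 100000 of the other lines were implanted, and tumors were collected later, at end stage, with no further treatment. The naive brain mice are likewise listed at 6 to 8 weeks. Each model is 1 line that carries a GFP and luciferase reporter, and a dissected tumor holds host cells beside tumor cells, so that fewer cells of a type and less RNA per cell cannot be told apart. Whether the libraries were made from polyadenylated RNA is not given in the sources used here, so levels are those of whatever histone transcripts the libraries captured.

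The 3′ stem-loop is shown because it decides which kind of 3′ end a histone mRNA can have. The 16-base histone stem-loop consensus was found on the gene strand of the annotated transcripts of 42 of the 65 genes. Capitals mark the 4-base loop in the 7 forms found, written 5′ to 3′.
H1, H2A, H2B and H3 genes (24): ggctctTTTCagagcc
H4 genes (7): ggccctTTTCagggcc
H1, H2B and H3 genes (6): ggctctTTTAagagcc
H4 genes (2): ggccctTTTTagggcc
H4 gene (1): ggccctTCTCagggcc
H3 gene (1): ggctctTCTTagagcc
H2A gene (1): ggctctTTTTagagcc
All 10 H4 genes with a match had the stem ggccct, and none of the 32 genes of the other classes did. The annotated transcript ran more than 100 bases past the stem-loop in 21 genes and 100 bases or fewer in the other 21, a limit chosen after seeing the data. The median of the mean level was 0.173 TPM (transcript abundance relative to all transcripts, scaled by length) in the first set and 0.140 TPM in the second. It was 0.0708 TPM in the 23 genes with no match. In several of these the annotated transcript is coding sequence alone, as in Hist1h4k (312 of 312 bases) and Hist2h2bb (381 of 381). No 3′ stem-loop could be found in such transcripts, so a missing match does not show that a gene lacks one.

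Promoters are shown for 4 genes that contrast in their pattern below. Hist1h1a and Hist1h1b are H1 genes that rose in the tumors, Hist1h1c is an H1 gene already present in naive brain, and Hist3h2ba is an H2B gene that was lower in CT2A and Mut3. The RefSeq promoter table (GRCm38.p6) matched 60 of the 65 genes. The 200 bases before the RefSeq start are printed 5′ to 3′ on the gene strand, and capitals mark the TATA box letters, the CCAAT box and the H1 box, each spelled out below, on either strand. ATTGG is a CCAAT box on the opposite strand.
Hist1h1a, chr13:23763468-23763667, plus strand: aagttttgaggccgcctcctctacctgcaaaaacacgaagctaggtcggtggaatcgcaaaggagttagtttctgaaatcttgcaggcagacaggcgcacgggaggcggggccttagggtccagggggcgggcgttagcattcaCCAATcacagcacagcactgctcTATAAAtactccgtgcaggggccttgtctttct
Hist1h1b, chr13:21780626-21780825, minus strand: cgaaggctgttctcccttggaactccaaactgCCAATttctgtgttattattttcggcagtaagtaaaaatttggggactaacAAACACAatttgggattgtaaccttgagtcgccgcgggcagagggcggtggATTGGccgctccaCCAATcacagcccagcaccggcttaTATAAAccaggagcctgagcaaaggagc
Hist1h1c, chr13:23738607-23738806, plus strand: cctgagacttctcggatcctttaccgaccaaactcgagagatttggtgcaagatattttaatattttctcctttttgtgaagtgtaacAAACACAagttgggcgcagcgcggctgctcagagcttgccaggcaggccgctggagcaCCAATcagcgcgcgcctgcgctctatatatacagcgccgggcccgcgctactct
Hist3h2ba, chr11:58948711-58948910, plus strand: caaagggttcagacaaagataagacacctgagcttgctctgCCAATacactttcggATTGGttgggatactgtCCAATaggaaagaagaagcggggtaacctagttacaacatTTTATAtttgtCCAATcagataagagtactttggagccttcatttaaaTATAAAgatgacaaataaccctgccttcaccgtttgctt

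The letters TATAAA, those of a TATA box, began 33 bases before the start in Hist1h1a, 28 bases before it in Hist1h1b and 39 bases before it in Hist3h2ba, and were not present in the window of Hist1h1c. Over the full 300-base windows of the table, on both strands, TATAAA was in 58.3% of the 60 histone promoters and in 13.6% of all 32851 promoters. CCAAT was in 85% against 37.4%. It was present in all 48 matched H1, H2A, H2B and H3 promoters and in 3 of 12 H4 promoters (25%). The octamer ATTTGCAT was in 20% against 1.74%, and was found in 7 H2A and 5 H2B promoters and in no promoter of the other classes. AAACACA, the H1 box, was in 5 of 6 H1 promoters (83.3%) against 7.18% of all promoters, with Hist1h1a as the exception. H2A and H2B genes often sit head to head and share promoter bases, so these promoters are not independent of each other.

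Levels of most of the genes were low. The libraries held 3105119 to 13130158 estimated counts. Of the 65 genes, 48 stayed under 3 TPM in every sample, 16 reached a mean of 1 TPM and 37 were at 0 in all 3 naive brain samples, where 3 counts would correspond to 0.612 to 0.811 CPM (counts scaled to library size). Hist1h2ac, Hist1h2ai and Hist2h2ab were at 0 in all 15 samples. The replicate 3 sample of 005 stood apart from the other 005 samples, with 17.8% of its counts from mitochondrial genes against 4.60% and 6.43%, and with a summed level of 6 neuron markers of 383 TPM against 11.3 and 35.2 TPM. Naive brain samples had 14.97 to 24.0% and 547 to 702 TPM. The mitochondrial share was 3.48 to 7.59% in CT2A, 4.33 to 11.3% in GL261 and 5.36 to 5.96% in Mut3, below every naive brain sample.

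The make-up of the histone transcripts differed between naive brain and tumors. H2B genes gave most of the summed TPM of the 65 genes in naive brain, with 61.2% ± 5.29 (SD, n = 3), and H1 genes gave 7.78% ± 3.70. The H1 share of the Mut3 tumors was 39.5% ± 10.3 and that of the CT2A tumors 36.3% ± 8.54, with 30.4% ± 4.69 for GL261 and 22.1% ± 11.1 for 005. It ranged from 5.07 to 11.99% in naive brain and from 26.2 to 46.6% in the CT2A, GL261 and Mut3 samples, so that these did not overlap. Replicate 3 of 005, at 9.41%, lay within the naive range. These shares are taken within a sample and do not depend on scaling between samples.

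**Figure D1:**
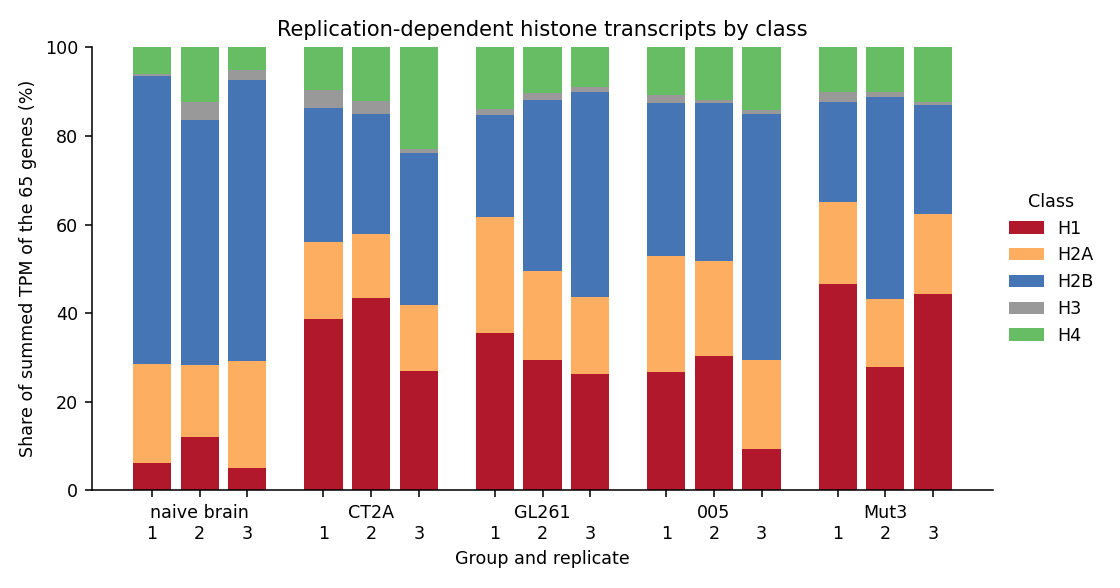
Stacked bars give the percentage of the summed TPM of the 65 genes contributed by each histone class in each of the 15 samples. The H1 part is 5.07 to 11.99% in naive brain and 26.2 to 46.6% in CT2A, GL261 and Mut3, while 005 replicate 3 is at 9.41%.

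The summed level of the 65 genes was 84.3 ± 15.9 TPM in naive brain (n = 3). It was lowest in GL261 (48.3 ± 14.04 TPM) and otherwise 79.7 ± 28.0 in 005, 83.7 ± 9.60 in CT2A and 100 ± 24.2 in Mut3. As a share of all counts, the 65 genes gave 0.0102 to 0.0135% in naive brain and 0.0164 to 0.0228% in Mut3, without overlap. The shares in CT2A (0.0132 to 0.0150%), GL261 (0.00611 to 0.0111%) and 005 (0.0103 to 0.0153%) overlapped naive brain. Set against the summed TPM of 11 replacement and variant histone genes in the same sample, the 65 genes came to a ratio of 0.281 to 0.304 in naive brain, 0.142 to 0.159 in CT2A, 0.0972 to 0.186 in GL261 and 0.108 to 0.130 in Mut3. None of the CT2A, GL261 or Mut3 samples reached the naive range. In 005 the ratios were 0.105, 0.166 and 0.343, the last in replicate 3. Between tumors and naive brain the TPM scale sits below the CPM scale by 0.58 (005) to 0.99 (CT2A) on the log2 scale over genes with more than 50 counts on average, and so the changes of single genes below are given in CPM.

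The filter on low counts kept 20 of the 65 genes for testing (4 H1, 5 H2A, 6 H2B, 1 H3 and 4 H4). The filter asked for 1.33 CPM in 3 samples. Hist1h1a, Hist1h1e, Hist1h2ae, Hist1h2ap, Hist1h2bj and Hist1h4d, 6 of the 20, had no naive brain sample over that level and passed through tumor samples alone, which favors a higher tumor level among the genes tested, so the counts and medians over the 20 are descriptions. A gene was called where edgeR's quasi-likelihood test gave an adjusted p under 0.05 over all 17481 genes tested and the log2 fold change was at least 1 in size. Against naive brain, 9 of the 20 were higher in CT2A (19% of all genes tested were) and 2 were lower (20.2%). In GL261, 4 were higher (14.6%) and 1 lower (7.77%). In 005, 2 were higher (11.6%) and 0 lower (1.05%), with 5 at an unadjusted p under 0.05. In Mut3, 8 were higher (17.9%) and 2 lower (19.8%). Of the 2 lower, Hist2h2aa2 passed the filter through 2 naive brain samples and 1 GL261 sample alone. Its call did not hold when its counts were summed with those of Hist2h2aa1. The median log2 fold change of the 20 genes was 1.22 (CT2A), 1.14 (Mut3), 0.60 (005) and 0.06 (GL261), and that of all genes tested was -0.04, 0.11, 0.01 and -0.08 in the same order. All 4 comparisons use the same 3 naive brain samples. Differences among the 5 groups passed an adjusted p of 0.05 for 10 of the 20 genes, against 52.1% of all genes tested.

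The counts moved by more than 1.5 times with single libraries. The 11 calls in CT2A fell to 6 without naive brain replicate 1 or without CT2A replicate 3. The 5 calls in GL261 fell to 2 without naive brain replicate 2 or GL261 replicate 1, and to 3 without naive brain replicates 1 or 3, CT2A replicate 2, GL261 replicate 3 or Mut3 replicate 1. The 2 calls in 005 became 4 without 005 replicate 3, 1 without naive brain replicates 2 or 3 or 005 replicate 1, and 0 without naive brain replicate 1 or 005 replicate 2. The count in Mut3 stayed between 7 and 10.

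**Figure D2:**
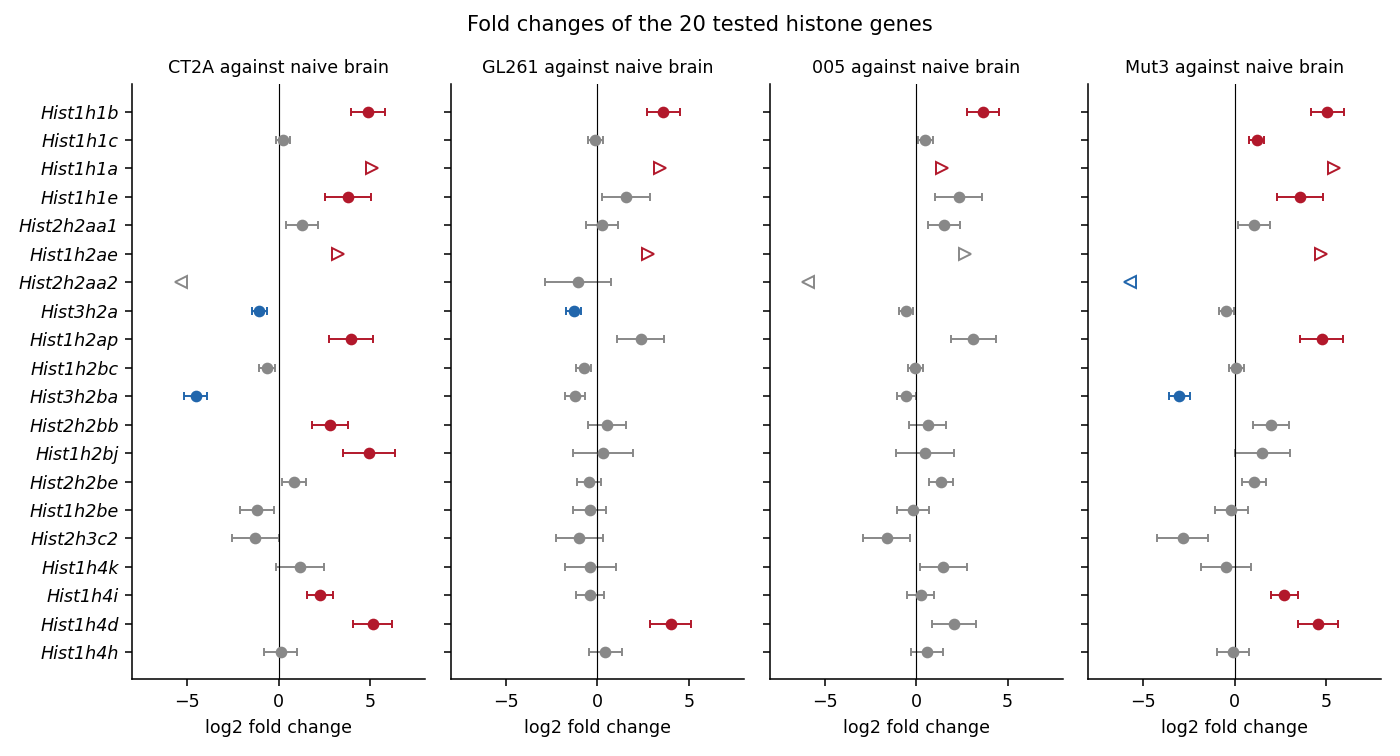
Points give the log2 fold change of each of the 20 tested genes against naive brain, with bars of 1 SE, and red, blue and gray mark genes called higher, called lower and not called. Open triangles replace the fitted value where a group is at 0 in all 3 samples and show the smallest fold that a floor of 3 counts over that group allows, and only Hist1h1b and Hist1h1a are red in all 4 panels.

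Of the 4 tested H1 genes, 3, 2, 2 and 4 were called higher in CT2A, GL261, 005 and Mut3 than in naive brain (19, 14.6, 11.6 and 17.9% of all genes tested were), and none lower. Hist1h1a and Hist1h1e passed the filter through tumor samples alone. Hist1h1b, which encodes the linker histone H1.5, was at 1.43, 1.25 and 0.541 CPM in naive brain. It was at 26.3, 45.8 and 25.3 CPM in CT2A, at 13.9, 16.5 and 9.95 CPM in GL261 and at 36.7, 12.2 and 62.3 CPM in Mut3. All 9 of these tumor samples lay above naive brain. In 005 it was at 16.9, 23.8 and 1.35 CPM, so that replicate 3 lay inside the naive range.

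The log2 fold change of Hist1h1b against naive brain was 5.07 ± 0.92 (SE) for Mut3 (adjusted p = 0.00104), 4.87 ± 0.91 for CT2A (adjusted p = 0.00173), 3.65 ± 0.89 for 005 (adjusted p = 0.0153) and 3.60 ± 0.89 for GL261 (adjusted p = 0.0121). The call was kept in CT2A, GL261 and Mut3 whichever of the 15 libraries was left out. In 005 it was kept in 12 of 15 such fits, rose to 4.12 (adjusted p = 0.000308) without 005 replicate 3, and was lost without naive brain replicate 1 or 3 or 005 replicate 2 (adjusted p = 0.0544 to 0.0657). With only the 2 groups compared, no histone gene was called in 005, so the call was lost there. In GL261 that setting called only 1 histone gene higher, so Hist1h1b and Hist1h1a were not both called. On the TPM scale, Hist1h1b averaged 1.32 in naive brain, below Hist1h2bc, Hist3h2ba and Hist1h1c among others, and had the highest group mean of the 65 genes in CT2A (19.4) and Mut3 (24.8). In Mut3 the mean of Hist1h2bc was close, at 24.05 TPM, and replicate 2 had the reverse order, with 8.39 TPM of Hist1h1b and 30.9 TPM of Hist1h2bc.

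Hist1h1a, which encodes H1.1, was at 0 in all 3 naive brain samples. It was at 5.37, 12.9 and 5.94 CPM in CT2A, at 2.69, 3.39 and 1.58 CPM in GL261 and at 16.3, 3.65 and 10.2 CPM in Mut3. In 005 it was at only 0.515, 0.604 and 0.783 CPM, from 5, 5 and 11 counts. Every tumor sample thus had counts where naive brain had none, and every 005 sample was below every sample of the other tumors. The 005 values lay within or below the 0.612 to 0.811 CPM that 3 counts mean in single naive brain libraries.

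Against a floor of 3 counts over the naive group, Hist1h1a was at least 33.9-fold higher in CT2A, 10.7-fold in GL261, 2.67-fold in 005 and 42.3-fold in Mut3. The adjusted p values were 0.000385, 0.00227, 0.0308 and 0.000275. The 005 call was lost without any 1 of the 3 naive brain samples or without 005 replicate 1 or 2 (adjusted p = 0.0562 to 0.0959), and the other 3 calls were kept whichever library was left out. The 005 call was also lost with only the 2 groups compared. In GL261 that setting called only 1 histone gene higher, so Hist1h1a and Hist1h1b were not both called. No 005 or naive brain sample of Hist1h1a was over the 1.33 CPM of the filter. A higher level in other tumors was thus a condition of its being tested. Between tumors, Hist1h1a was lower in 005 than in CT2A (log2 difference CT2A minus 005 of 3.62 ± 0.65, adjusted p = 0.0104) and than in Mut3 (005 minus Mut3 of -3.94 ± 0.65, adjusted p = 0.00252), both kept in 15 of 15 fits. It was also lower in GL261 than in Mut3 (-1.98 ± 0.60, adjusted p = 0.0376), a call kept in 10 of 15 fits and lost without any 1 of the GL261 samples or without Mut3 replicate 1 or 3.

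Hist1h1c, which encodes H1.2, was the H1 gene with the highest level in naive brain, at 8.57, 17.9 and 10.3 CPM. It was at 16.2, 13.5 and 13.3 CPM in CT2A, at 9.33, 14.1 and 10.6 CPM in GL261 and at 11.2, 21.7 and 19.1 CPM in 005. These samples overlapped naive brain, and the 95% intervals of the log2 fold change were -0.62 to 1.08, -0.97 to 0.75 and -0.35 to 1.35. The CT2A and 005 directions depended on the scale, since their means of 2.86 and 4.71 TPM lay below the 5.17 TPM of naive brain. In Mut3 it was at 36.8, 33.5 and 14.9 CPM.

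The Mut3 difference of Hist1h1c was 1.21 ± 0.40 on the log2 scale (adjusted p = 0.0267), although replicate 3 overlapped naive brain. In TPM the Mut3 mean was 6.30, and all 3 Mut3 samples (3.27 to 8.09) lay within the naive range (3.08 to 9.19). The call was lost without naive brain replicate 1 or 3 or without Mut3 replicate 1 or 2 (log2 fold changes down to 0.98, adjusted p = 0.0785 to 0.104). Hist1h1c was also higher in Mut3 than in GL261 (GL261 minus Mut3 of -1.32 ± 0.40, adjusted p = 0.0344), a call kept in 9 of 15 fits and lost without CT2A replicate 2, any 1 GL261 sample or Mut3 replicate 1 or 2.

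Hist1h1e, which encodes H1.4, had 3 counts in naive brain, all in replicate 2 (0.747 CPM). It was at 1.59, 3.1 and 5.81 CPM in CT2A and at 5.37, 1.89 and 2.02 CPM in Mut3, all above naive brain, though in TPM the lowest CT2A sample (1.157) lay just below naive brain replicate 2 (1.165). The log2 fold changes in CPM were 3.77 ± 1.26 (CT2A, adjusted p = 0.0277) and 3.59 ± 1.26 (Mut3, adjusted p = 0.0343). The CT2A call was lost without naive brain replicate 1 or 3 or CT2A replicate 3, and the Mut3 call without the same naive samples or Mut3 replicate 1 (adjusted p = 0.0827 to 0.113). The annotated Hist1h1e overlaps Hist1h2be on the same strand, so reads of the shared part could be assigned to either.

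**Figure D3:**
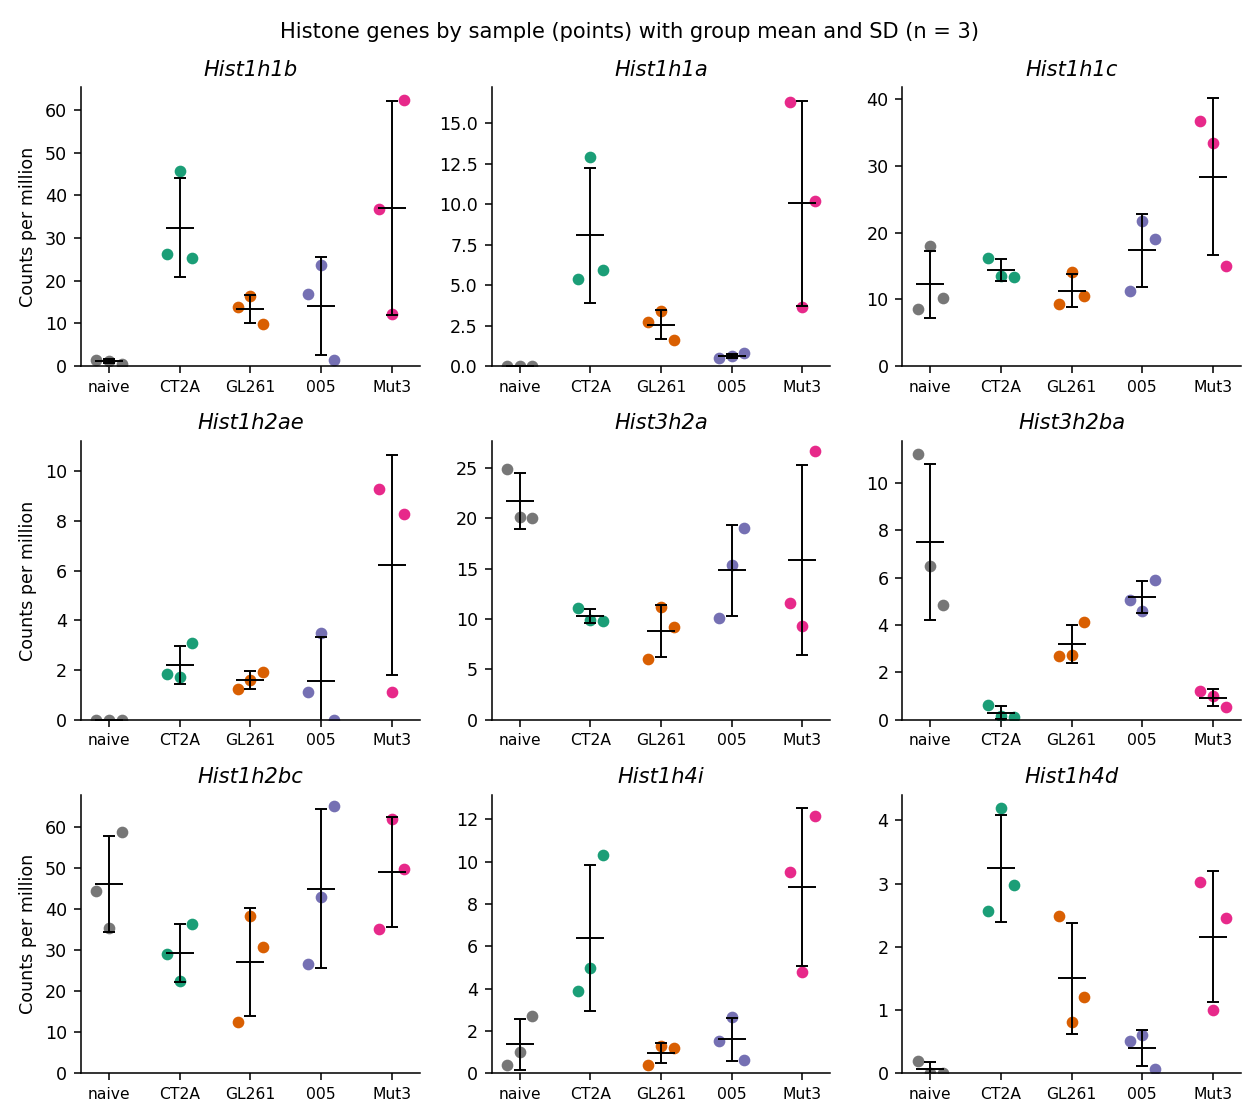
Points give the CPM of 9 histone genes in each sample of naive brain and the 4 tumors, and black bars give the mean and SD of 3 samples, with bars cut at 0. Hist1h1b and Hist1h1a are near 0 in naive brain, Hist3h2ba is highest there with 4.87 to 11.2 CPM, and Hist1h2bc overlaps between naive brain and each tumor on this CPM scale.

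Among the H2A genes, Hist1h2ae encodes the same protein as 8 others and is therefore uncertain as a single gene. It was at 0 in naive brain. It was at 1.83, 1.71 and 3.1 CPM in CT2A, at 1.24, 1.62 and 1.94 CPM in GL261 and at 9.29, 1.13 and 8.27 CPM in Mut3. In 005 it was at 1.13, 3.50 and 0 CPM, with replicate 3 again at the naive level. It was at least 9.31-fold higher than naive brain in CT2A (adjusted p = 0.0201), 6.73-fold in GL261 (adjusted p = 0.0472) and 26.2-fold in Mut3 (adjusted p = 0.00568), and was not called in 005 (adjusted p = 0.0711). The Mut3 call was kept in 15 of 15 fits. The CT2A call was lost without naive brain replicate 1 or CT2A replicate 3 (adjusted p = 0.0509 and 0.0549), and the GL261 call was kept in only 3 of 15, those without 005 replicate 2, 005 replicate 3 or Mut3 replicate 2.

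Hist1h2ap, which shares its coding bases with Hist1h2ao and is therefore uncertain as a single gene, had 1 count in naive brain. It was at 0.733, 2.02 and 1.55 CPM in CT2A and at 2.35, 1.51 and 3.69 CPM in Mut3. Both sets lay above naive brain, with log2 fold changes of 3.94 ± 1.21 (adjusted p = 0.0182) and 4.76 ± 1.2 (adjusted p = 0.00585). The Mut3 call was kept in 15 of 15 fits with 1 library left out, and the CT2A call was lost without naive brain replicate 2 or 3 or CT2A replicate 2 (adjusted p = 0.0537 to 0.0565). In GL261 and 005 the fold changes were 2.36 ± 1.30 and 3.14 ± 1.23 and did not pass (adjusted p = 0.186 and 0.103).

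Hist3h2a, from the small Hist3 cluster, had the opposite direction. It was at 24.9, 20.2 and 20.01 CPM in naive brain, at 11.1, 9.94 and 9.82 CPM in CT2A and at 6.01, 11.2 and 9.22 CPM in GL261. These tumor samples lay below all naive samples, with log2 fold changes of -1.08 ± 0.40 (adjusted p = 0.0442) and -1.30 ± 0.41 (adjusted p = 0.0342). The 005 samples were at 10.1, 15.3 and 19.1 CPM and the Mut3 samples at 11.6, 9.31 and 26.6 CPM, and neither group passed.

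In TPM the Hist3h2a difference was larger, with 3.35 in naive brain against 0.800 in CT2A and 0.788 in GL261, and the Mut3 samples (0.825 to 2.27) also lay below naive brain (2.48 to 4.03). In CPM both calls of Hist3h2a sat close to a threshold. The CT2A call was kept in 3 of 15 fits, those without 005 replicate 1, 005 replicate 3 or Mut3 replicate 2, with log2 fold changes between -1.12 and -0.92 over the 15. The GL261 call was kept in 8 of 15 and lost without any 1 of the naive brain samples, CT2A replicate 2, GL261 replicate 1 or 3, or Mut3 replicate 1. Hist3h2a overlaps Trim17 on the same strand.

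Hist2h2aa1 and Hist2h2aa2 have identical coding bases, and their counts fell to one or the other. Hist2h2aa2 was at 9.59 and 6.97 CPM in naive brain replicates 1 and 2 and at 8.08 CPM in GL261 replicate 1, and at 0 in the other 12 samples. In those 3 samples Hist2h2aa1 was at 1.02, 0.747 and 0.829 CPM, against 5.94 to 16.4 CPM elsewhere. Taken alone, Hist2h2aa2 was called lower in Mut3 (adjusted p = 0.0483). Summed, the 2 genes stood at 11.1 ± 3.60 CPM in naive brain and 11.5 ± 0.66 in Mut3, with 9.05 ± 3.17 for GL261, 13.4 ± 1.30 for CT2A and 15.4 ± 1.2 for 005. Fitted as 1 gene, the pair differed between Mut3 and naive brain by 0.05 ± 0.33 on the log2 scale (95% interval -0.65 to 0.75, adjusted p = 0.915), so the call for Hist2h2aa2 did not hold for the pair.

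The H2B genes included the histone gene with the highest level in naive brain and a gene that fell in CT2A and Mut3. Hist1h2bc had the highest mean TPM of the 65 genes in naive brain, GL261 and 005. It stood below Hist1h1b in CT2A and, by 24.05 against 24.8 TPM, in Mut3. In naive brain it gave 39.2 to 55.9% of the summed TPM of the 65 genes. In CPM it was at 44.5, 35.4 and 58.7 in naive brain, at 29.1, 22.5 and 36.4 in CT2A, at 12.6, 38.3 and 30.7 in GL261, at 26.7, 43.0 and 65.2 in 005 and at 35.1, 61.9 and 49.9 in Mut3. In CPM every tumor overlapped naive brain. In TPM it was at 35.8 to 41.2 in naive brain, 9.17 to 14.9 in CT2A, 5.18 to 19.5 in GL261, 12.3 to 51.7 in 005 and 17.1 to 30.9 in Mut3, so that on this scale the CT2A, GL261 and Mut3 samples all lay below naive brain. In CPM the log2 fold changes were -0.65, -0.76, -0.04 and 0.08 with 95% intervals of -1.55 to 0.24, -1.66 to 0.14, -0.92 to 0.85 and -0.80 to 0.97, and none of the 10 comparisons called it. Its annotated transcript holds no match to the stem-loop. Its protein is identical to that of 2 other H2B genes, so its level as a single gene is uncertain.

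Hist3h2ba, which lies in the Hist3 cluster beside Hist3h2a, was at 11.2, 6.48 and 4.87 CPM in naive brain. It was at 0.611, 0.155 and 0.129 CPM in CT2A, from 5, 1 and 1 counts, and at 1.23, 1.01 and 0.528 CPM in Mut3. In GL261 it was at 2.69, 2.75 and 4.12 CPM and in 005 at 5.05, 4.59 and 5.91 CPM. The order of the group means was thus naive brain, 005, GL261, Mut3 and CT2A, and of the neighbours in this order only GL261 and Mut3 differed in the test.

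Hist3h2ba had no CT2A or Mut3 sample over the 1.33 CPM of the filter and passed it through naive brain, GL261 and 005 samples. Against naive brain the log2 fold change of Hist3h2ba was -4.55 ± 0.64 for CT2A (adjusted p = 0.000355) and -3.02 ± 0.57 for Mut3 (adjusted p = 0.00122). In GL261 and 005 it was -1.23 ± 0.53 and -0.54 ± 0.51 (adjusted p = 0.0960 and 0.477). CT2A lay below GL261 by 3.32 ± 0.63 (adjusted p = 0.00548) and below 005 by 4.01 ± 0.63 (adjusted p = 0.00346), and 005 lay above Mut3 by 2.48 ± 0.55 (adjusted p = 0.00815). These 5 calls were kept in 15 of 15 fits with 1 library left out. With only the 2 groups compared, no histone gene was called lower in CT2A than in 005, so that call was lost. GL261 lay above Mut3 by 1.79 ± 0.55 (adjusted p = 0.0378), a call kept in 10 of 15 fits and lost without GL261 replicate 2 or 3 or any 1 Mut3 sample. It was also lost under library size scaling, where no histone gene was called higher in GL261 than in Mut3.

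Hist1h2bj encodes the same protein as 3 other H2B genes and is likewise uncertain as a single gene. It was higher in CT2A, with 2.20, 7.92 and 6.20 CPM against 0, 0.498 and 0 CPM in naive brain. No sample outside CT2A exceeded 7 counts, and Hist1h2bj passed the filter on low counts through the 3 CT2A samples alone, so that a high level in CT2A was a condition of its being tested. Its log2 fold change against naive brain was 4.94 ± 1.42 (adjusted p = 0.0135), a call lost without naive brain replicate 1 (adjusted p = 0.0530). It was at 0 to 0.323 CPM in GL261, and CT2A minus GL261 was 4.65 ± 1.31 (adjusted p = 0.0420), a call kept in 8 of 15 fits and lost without CT2A replicate 2 or 3, any 1 GL261 sample, or Mut3 replicate 1 or 3. This call was also lost with a replicate block.

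Hist2h2bb was at 1.71, 4.35 and 4.26 CPM in CT2A against 0.204, 1.25 and 0 CPM in naive brain, with a log2 fold change of 2.80 ± 0.99 (adjusted p = 0.0353). In TPM the means were 4.00 and 1.39, and naive brain replicate 2 (3.78) lay above CT2A replicate 1 (2.37). The call was lost without naive brain replicate 1 or 3 or CT2A replicate 2 or 3 (adjusted p = 0.0832 to 0.117). Hist2h2bb overlaps the lincRNA Gm42743 on the same strand and the antisense gene Gm20628 on the other, so its reads could be shared with either. The other tested H2B genes, Hist2h2be and Hist1h2be, were called in none of the 4 comparisons with naive brain, with Hist2h2be at 1.22 to 2.74 CPM in naive brain and 2.56 to 6.16 CPM in 005 (log2 fold change 1.36, 95% interval -0.04 to 2.75).

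H3 genes were the least represented class, with 1.10 to 2.65% of the summed TPM on average per group. Only Hist2h3c2 passed the filter on low counts, and it was called in no comparison. It had 76 counts over all samples, with 0, 3.49 and 1.62 CPM in naive brain and 0.671, 0 and 0 CPM in Mut3. Hist1h3h, Hist1h3g and Hist1h3c, next in level among the H3 genes, had no count in naive brain. Hist1h3h was at 0.388 to 2.33 CPM in CT2A, from 3 to 15 counts, and Hist1h3g at 0 to 1.45 CPM in Mut3, while Hist1h3c stayed at 0.466 CPM or less. Of the 12 H3 genes, 11 encode the same protein as another member, so single H3 genes are uncertain.

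All 13 H4 genes encode the same protein, and reads may be assigned uncertainly among them. Hist1h4i was at 0.408, 0.996 and 2.70 CPM in naive brain, at 3.91, 4.97 and 10.3 CPM in CT2A and at 9.51, 4.78 and 12.1 CPM in Mut3. It was at 0.414, 1.29 and 1.21 CPM in GL261 and at 1.54, 2.66 and 0.641 CPM in 005. CT2A and Mut3 lay above naive brain in all samples, and GL261 and 005 did not.

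The log2 fold change of Hist1h4i was 2.25 ± 0.73 for CT2A (adjusted p = 0.0241) and 2.71 ± 0.73 for Mut3 (adjusted p = 0.00959). The Mut3 call was kept in 15 of 15 fits, and the CT2A call was lost without naive brain replicate 1 or 2 or CT2A replicate 3 (adjusted p = 0.0611 to 0.109). Between tumors, Hist1h4i was lower in GL261 than in Mut3 (-3.12 ± 0.73, adjusted p = 0.0114, kept in 15 of 15). The calls of CT2A above GL261 (2.66 ± 0.73, adjusted p = 0.0366) and of 005 below Mut3 (-2.46 ± 0.69, adjusted p = 0.0225) were kept in 8 and 11 of 15. The first was lost without CT2A replicate 2 or 3, any 1 GL261 sample, or Mut3 replicate 1 or 3, and the second without 005 replicate 1 or 3 or Mut3 replicate 1 or 3. The first was also lost with a replicate block, where no histone gene was called higher in CT2A than in GL261.

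Hist1h4d had 1 count in naive brain and was at 2.56, 4.19 and 2.97 CPM in CT2A, 2.49, 0.808 and 1.21 CPM in GL261 and 3.02, 1.01 and 2.46 CPM in Mut3, all above naive brain. The log2 fold changes were 5.12 ± 1.08 (adjusted p = 0.0031), 4.00 ± 1.11 (adjusted p = 0.0208) and 4.54 ± 1.08 (adjusted p = 0.00472). In 005 it was at 0.515, 0.604 and 0.0712 CPM and not called (2.08 ± 1.19, adjusted p = 0.237). The GL261 call was lost without naive brain replicate 2 or 3 or GL261 replicate 1 (adjusted p = 0.0597 to 0.0686), and the calls in CT2A and Mut3 were kept throughout. Hist1h4d, too, had no 005 or naive brain sample over the 1.33 CPM of the filter. A higher level in other tumors was thus a condition of its being tested. The lower level in 005 passed against CT2A and Mut3 (adjusted p = 0.0482 and 0.0405) but was kept in only 1 and 5 of 15 fits. The first was kept only without naive brain replicate 2, and the second without any 1 of the naive brain samples, GL261 replicate 2 or Mut3 replicate 2. Hist1h4k and Hist1h4h, the other H4 genes tested, were called in no comparison with naive brain. Hist1h4k ranged from 0 to 1.495 CPM in naive brain and from 0 to 3.49 CPM in CT2A, and Hist1h4h from 0.270 to 1.63 and from 0.517 to 1.55 CPM.

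The 45 genes that did not pass the filter held few counts. Their summed level was 0.747 to 3.24 CPM in naive brain, from 3 to 12 counts, and 9.40 to 16.8 CPM in CT2A, from 77 to 130 counts. It was 2.75 to 5.09 CPM in GL261, 1.85 to 5.31 CPM in 005 and 4.78 to 8.97 CPM in Mut3. All CT2A samples were above those of every other group. Between 21 and 22 of the 45 had a count in each CT2A sample, 13 to 24 in each Mut3 sample and 1 to 6 in each naive brain sample, and the naive brain libraries were the shallowest.

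The tumors differed from each other in few of the 20 genes. CT2A had 2 higher (4.15% of all genes tested), of which Hist1h2bj passed the filter through CT2A alone, and 1 lower (3.62%) than GL261, and 2 higher (2.12%) and 1 lower (1.99%) than 005. GL261 had 1 higher (11.1%) and 3 lower (6.1%) than Mut3, and 005 had 1 higher (14%) and 3 lower (5.76%) than Mut3. No gene was called between CT2A and Mut3 (12.8% of all genes tested) or between GL261 and 005 (2.62%) by edgeR's quasi-likelihood test. At an unadjusted p under 0.05 there were 3 and 4. For CT2A against Mut3, DESeq2 and limma on log2(TPM + 1) each called 1. Hist3h2ba was called in 4 of the 6 comparisons between tumors, and Hist1h1a and Hist1h4i in 3 each.

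These counts, too, moved with single libraries. The 3 calls between CT2A and GL261 fell to 1 without CT2A replicate 2 or 3, any 1 GL261 sample, or Mut3 replicate 1 or 3. The 4 calls between GL261 and Mut3 ranged from 1 to 6, with 1 without GL261 replicate 2 or 3 or Mut3 replicate 1 and 2 without GL261 replicate 1 or Mut3 replicate 2 or 3. The 4 calls between 005 and Mut3 fell to 2 without 005 replicate 1 or 3 or Mut3 replicate 1 or 3. The 0 calls between CT2A and Mut3 became 2 without CT2A replicate 1 or any 1 of the 005 samples, and 1 without any 1 of the naive brain or GL261 samples.

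The genes that make, process and carry histones gave the following counts, from lists chosen for their known roles. Over all genes tested, 19, 14.6, 11.6 and 17.9% were called higher in CT2A, GL261, 005 and Mut3 than in naive brain, and 20.2, 7.77, 1.05 and 19.8% lower. Of 15 genes for histone mRNA processing, 4, 1, 2 and 3 were higher in CT2A, GL261, 005 and Mut3 than in naive brain, near these shares, and none was lower. Slbp was at 59.0 to 71.9 CPM in naive brain and had log2 fold changes of 0.53, -0.08, 0.07 and 0.58, none of them called (adjusted p = 0.0658 to 0.854). Casp8ap2, which organises the histone locus body where these genes are transcribed, was at 12.9 CPM on average in naive brain and rose in all 4 tumors, to 127, 149, 81.5 and 188 CPM in CT2A, GL261, 005 and Mut3 (adjusted p = 0.00109, 0.00103, 0.00667 and 0.000446). Of 21 histone chaperones, 7, 5, 6 and 8 were higher in the 4 tumors, and 2, 0, 0 and 0 were lower. Asf1b, which hands new H3 and H4 to chromatin assembly, was at 1.67 CPM in naive brain and at 80.1, 35.2, 12.3 and 56.5 CPM (adjusted p = 0.000282, 0.0011, 0.0152 and 0.000376), and the 005 call was lost without naive brain replicate 1 or 2 or 005 replicate 1 or 2.

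Of the 11 replacement and variant histones, 6 were higher and 1 lower in CT2A, 2 higher and 1 lower in GL261, 5 higher in 005 and 8 higher in Mut3, of which the GL261 counts are near the shares of all genes. H2afz, the gene for the H2A.Z variant, was at 147 to 196 CPM in naive brain and had log2 fold changes of 2.50, 0.79, 1.41 and 2.58 (adjusted p = 0.000511, 0.113, 0.0198 and 0.000394), and the 005 call was lost without naive brain replicate 1 or 2 or 005 replicate 1 or 2. H1f0, the linker histone of cells that have left the cycle, was at 43.3 CPM in naive brain and 280 CPM in Mut3, a log2 fold change of 2.69 ± 0.33 (adjusted p = 0.000157). Its level in CT2A was 98.0 CPM (adjusted p = 0.00946), a call lost without naive brain replicate 3 (log2 fold change 0.99), and it was not called in GL261 or 005.

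Markers of dividing cells, of neurons and of other cell types were set beside these results. The counts for these lists stand against 19, 14.6, 11.6 and 17.9% of all genes called higher, and 20.2, 7.77, 1.05 and 19.8% called lower, in CT2A, GL261, 005 and Mut3. Of 34 S phase genes, 29, 23, 22 and 28 were called higher in CT2A, GL261, 005 and Mut3 than in naive brain, and of 20 mitosis genes all 20 were in each tumor. None was lower. The median log2 CPM of the S phase list was 2.64 to 2.84 in naive brain and 4.77 to 6.18 in the tumor samples other than 005 replicate 3, which was at 3.44 and had 1.35 CPM of Hist1h1b. Of the 3 Mut3 samples, replicate 2 had the lowest S phase level, 5.00, and the lowest Hist1h1b, Hist1h1a, Hist1h2ae, Hist1h4i and Hist1h4d, whereas Hist1h1c was lowest in replicate 3 (14.9 CPM) and Hist1h2bc highest in replicate 2 (61.9 CPM).

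Of 6 neuron markers, 6 were lower in CT2A and in Mut3, and 0 were called in GL261 and 005. Their summed level was 4106 to 5599 CPM in naive brain, 155 to 862 in CT2A, 593 to 1660 in GL261, 147 to 3200 in 005 and 41.1 to 113 in Mut3, and all 6 are defining genes of neurons. Hist3h2ba was lower in the groups whose neuron markers were called lower. Among the 005 samples it stayed at 4.59 CPM in replicate 2, whose neuron markers summed to 147 CPM, and was at 5.91 CPM in replicate 3, whose markers summed to 3200 CPM. In CT2A replicate 1, with 862 CPM of neuron markers, it was at 0.611 CPM, the highest of the 3 CT2A samples, against 0.155 and 0.129 CPM in the others, with 155 and 186 CPM of neuron markers. Of 6 oligodendrocyte markers, 3 were lower in CT2A and 4 in Mut3, and 0 were called in GL261 and 005. Of 7 microglia and macrophage markers, 3 were higher in each of CT2A, GL261 and 005, with 1 lower in CT2A, and 5 were lower in Mut3. Of the 5 tested T cell markers, 4 were higher in each of CT2A, GL261 and 005, and 1 was lower in CT2A and in Mut3. Of 5 astrocyte markers, 3 were lower in CT2A, 1 was higher in GL261, and 1 was higher and 2 lower in Mut3. Of 5 endothelium markers, 1 was called, higher in Mut3, near the 17.9% of all genes. The part of these marker lists in the histone results was not tested.

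**Figure D4:**
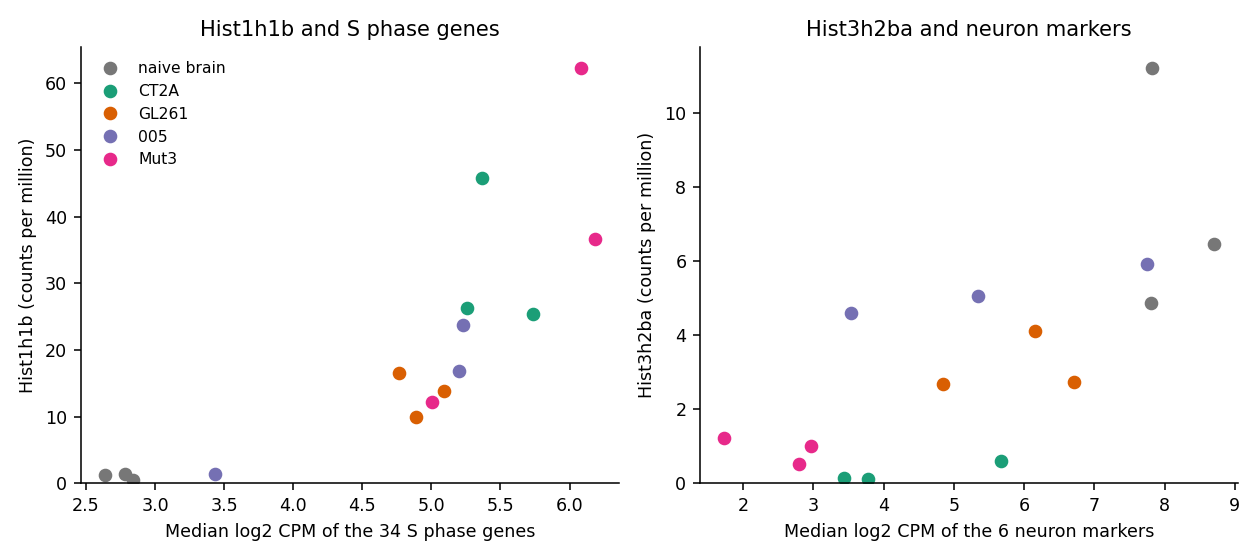
The left panel sets Hist1h1b (CPM) against the median log2 CPM of 34 S phase genes and the right panel Hist3h2ba (CPM) against that of 6 neuron markers, with 1 point per sample colored by group. In the left panel 005 replicate 3 (3.44 and 1.35) lies beside naive brain, and in the right panel the 3 samples of 005 differ little in Hist3h2ba (4.59 to 5.91) over a wide range of neuron markers.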

How the data were processed

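RNA from 15 mouse brains or brain tumors (5 groups of 3 mice) was sequenced. The authors aligned reads with STAR 2.4.2a to mm10, and their processing notes also name Salmon and DESeq2 1.18.1. The authors deposited an expected count and a TPM value per gene. Strandedness is not given in the sources used here. Counts were rounded, filtered with filterByExpr (17481 of 46679 genes kept), scaled by TMM and fitted over all 15 samples with a mean per group by edgeR 4.0.16 (quasi-likelihood test, Benjamini-Hochberg adjustment over all genes tested, R 4.3.3). CPM uses the TMM-scaled library size. The procedure was tested on simulated data. Intervals cover 95% of the fitted error, and a floor of 3 counts covers counting error only. Genes named are the 4 with the highest mean TPM per class, the member with the smallest p in each comparison, those at 0 throughout, and, from the lists, some of the 3 with the highest mean TPM or the smallest F test p. Hist1h2ap, Hist2h2be and Hist1h2be were named after their values were seen. The members and lists were chosen with earlier results of these data known. Alternatives were library size scaling, DESeq2 1.42.0, no filter, 10 counts in every sample, only the groups compared, log2(TPM + 1) with limma 3.58.1, no fold threshold, a replicate block and each library left out. The summed Hist2h2aa1 and Hist2h2aa2 pair was added after seeing the data. A further part of the genotypes of the tumor lines is not reported here.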

Additional observations from a re-analysis of the deposited data

Results flagged for a closer look

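Fold changes of several genes differed between tumors by a test of the difference itself, given as log2 values of the first tumor minus the second. For Hist3h2ba the difference was -3.32 for CT2A against GL261, -4.01 for CT2A against 005, 1.79 for GL261 against Mut3 and 2.48 for 005 against Mut3. For Hist1h1a it was 3.62 for CT2A against 005, -1.98 for GL261 against Mut3 and -3.94 for 005 against Mut3. For Hist1h4i it was 2.66 for CT2A against GL261, -3.12 for GL261 against Mut3 and -2.46 for 005 against Mut3, and for Hist1h4d 3.04 for CT2A against 005 and -2.47 for 005 against Mut3. Hist1h2bj, which passed the filter on low counts through its CT2A samples alone, differed by 4.65 for CT2A against GL261, and Hist1h1c by -1.32 for GL261 against Mut3. Hist1h1a and Hist1h4d had no 005 sample over the level of the filter. Not all calls held with 1 library left out. Of 15 such fits, Hist1h4d kept its call in 1 for CT2A against 005 and in 5 for 005 against Mut3. For CT2A against GL261, Hist1h2bj and Hist1h4i each kept it in 8. For GL261 against Mut3, Hist1h1c kept it in 9, and Hist1h1a and Hist3h2ba each in 10. Hist1h4i kept it in 11 for 005 against Mut3, and the other calls were kept in all 15.

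Among histone genes annotated as pseudogenes, which no comparison used, Hist1h2aj had no count in naive brain and averaged 0.881 CPM in CT2A (21 counts) and 0.323 CPM in GL261 (6 counts). Hist3h2bb-ps had no count in naive brain, CT2A or GL261 and averaged 0.581 CPM in Mut3 (16 counts), with 3 counts in 005. Hist1h2al had its highest mean in naive brain, 1.23 CPM (14 counts), and no count in Mut3. It averaged 0.836 CPM in CT2A (18 counts), 0.593 CPM in GL261 (11 counts) and 0.470 CPM in 005 (18 counts).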

How the results depend on the processing

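For 42 called fold changes of histone genes, 916 alternative fits gave 0 changes of direction, and 160 of them lost the call. Fits in which the filter dropped a gene are not among the 916. A gene at 0 in all naive brain samples could not change direction against naive brain. The call of Hist2h2aa2 in Mut3 did not hold for its summed pair (0.05), and fold changes that were not called were not tallied. Counts of calls depended on the filter and on which samples shared the fit. Requiring 10 counts in every sample left 3 genes to test, with 1 call in CT2A, GL261 and Mut3 against naive brain and between GL261 and Mut3, 0 in 005, between CT2A and GL261, CT2A and 005, and 005 and Mut3, and 2 differing among the 5 groups. With no filter 62 genes were tested, with 4 calls in 005 and 2 between CT2A and Mut3. With only the 2 groups compared there were 7 calls in CT2A, 2 in GL261, 0 in 005, 1 between CT2A and 005, 1 between CT2A and Mut3 and 2 between 005 and Mut3, and fewer genes were tested. DESeq2 called 5 between CT2A and 005 and 1 between CT2A and Mut3, limma on log2(TPM + 1) called 1 between CT2A and Mut3, and library size scaling 2 between GL261 and Mut3. The cause was not tested for the last 3 settings.

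Replicate numbers did not pair the samples: over 30 pairs with the same number the mean correlation of deviations was -0.03, from -0.33 to 0.26, with 1 above 0.1. A replicate block gave 1 call in 005 against naive brain and 1 between CT2A and GL261, and left the other counts within 1.5 times.

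With 1 library left out, calls ranged from 6 to 13 in CT2A, 2 to 5 in GL261, 0 to 4 in 005 and 7 to 10 in Mut3 against naive brain, from 1 to 3 between CT2A and GL261, 2 to 3 between CT2A and 005, 0 to 2 between CT2A and Mut3, 0 to 0 between GL261 and 005, 1 to 6 between GL261 and Mut3 and 2 to 4 between 005 and Mut3, and from 8 to 12 among the 5 groups.

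Ratios of class totals (TPM, tumor over naive brain) moved with the unit. In CPM, H2A in CT2A went from 0.755 to 0.873, H2B from 0.501 to 0.826 in CT2A, 0.360 to 0.600 in GL261 and 0.570 to 1.02 in Mut3, H3 from 0.308 to 0.554 in GL261 and 0.371 to 0.489 in 005, and H4 from 1.82 to 4.31 in CT2A, 0.732 to 1.38 in GL261 and 1.57 to 4.09 in Mut3. With only genes that passed the filter, H2A in CT2A was 0.699 and H3 was 0.187 in CT2A, 0.182 in 005 and 0.0681 in Mut3. With 1 library left out, H1 ranged from 3.54 to 7.10 in CT2A, 1.67 to 3.35 in GL261, 1.73 to 3.74 in 005 and 4.80 to 9.60 in Mut3, H3 from 0.728 to 2.15, 0.218 to 0.645, 0.263 to 0.777 and 0.396 to 1.32, and H4 from 1.27 to 3.02, 0.595 to 1.22, 1.06 to 2.39 and 1.28 to 2.62.

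Depth limits these results: with 3105119 to 13130158 counts per library, 45 of the 65 genes did not pass the filter, and a gene at 0 in naive brain is limited to 0.238 CPM or less, the level of 3 counts over that group.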
